A study of Rattus norvegicus with 6 samples.

Results

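The genes described here are 10 genes of the YAP and TEAD pathway, chosen by name from the 18420 genes of the deposited table. They are the co-activators Yap1 and Wwtr1, the DNA-binding partners Tead1 and Tead3, the upstream regulators Ajuba, Lats2 and Amotl2, and the target genes Ankrd1, Ccn1 (listed in the table as Cyr61) and Ccn2 (listed as Ctgf). RNA-seq measures each gene by its sequenced RNA fragments, and the 6 libraries were made from poly(A) RNA of primary articular chondrocytes of male wild-type Sprague-Dawley rats at the third passage. The 3 libraries of the TNF-α group came from cells exposed for 6 h to TNF-α at 10 ng/mL. The 3 libraries of the TNF-α+NFL group came from cells given the same exposure and then NFL for 24 h, with a labelled time of 30 h. NFL (Nanofat lysate) is the cleared freeze-thaw lysate of Nanofat, the stromal cells obtained by digesting rat abdominal fat. Cells of the NC group, which received saline, were not analysed here, so TNF-α is common to both groups. Harvest time and NFL changed together between the groups and cannot be told apart. The study calls the libraries of a group independent biological replicates, without saying whether they came from separate animals or cultures, and the p-values measure the spread between these libraries. Every direction given here follows the treatment named in the labels. The fold changes against untreated cells in the study's supplementary table, read by their headings, order these groups the other way round. Either the labels or those headings may therefore be exchanged, which could not be settled here, and if it is the labels, every sign below turns while the sizes stay.

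YAP (encoded by Yap1) and TAZ (encoded by Wwtr1) are co-activators without a DNA-binding domain, which enter the nucleus and bind the TEAD transcription factors to switch on genes of growth, adhesion and matrix. The Hippo kinases hold them back: LATS1 and LATS2 phosphorylate YAP and TAZ, which keeps them in the cytoplasm or leads to their breakdown. Stiff matrix, cell spreading and actin tension favor the nuclear form, and in chondrocytes spread on plastic the pathway is known for its link with loss of the cartilage phenotype. The control acts largely on the protein, so RNA levels do not measure the location or phosphorylation of YAP or TAZ.

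TEAD factors bind a short DNA motif, shown here because it links the factors to the target genes. The motif GGAATG, or CATTCC on the other strand, was searched in the 250 bases before the start of each gene in the RefSeq table of rat promoters (assembly GRCr8). A window was found for 7 of the 10 members (Tead1, Ankrd1 and Lats2 had none in the table), and 5 of these 7 held at least 1 match, against 12.1% of all 33469 windows. The windows of Ccn2, Ccn1 and Amotl2, all known as YAP targets, are printed here on the strand of the gene, 5′ to 3′, with the matches in capitals.
Ccn2: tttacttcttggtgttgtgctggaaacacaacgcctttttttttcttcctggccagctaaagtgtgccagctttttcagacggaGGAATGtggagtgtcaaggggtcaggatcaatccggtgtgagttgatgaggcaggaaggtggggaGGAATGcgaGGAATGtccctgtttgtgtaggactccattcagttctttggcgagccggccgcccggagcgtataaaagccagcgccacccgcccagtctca
Ccn1: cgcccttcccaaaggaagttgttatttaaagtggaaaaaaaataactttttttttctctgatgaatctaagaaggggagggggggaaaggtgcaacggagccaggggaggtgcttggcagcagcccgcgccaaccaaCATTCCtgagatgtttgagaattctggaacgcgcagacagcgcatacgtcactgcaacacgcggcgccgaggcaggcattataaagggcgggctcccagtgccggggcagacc
Amotl2: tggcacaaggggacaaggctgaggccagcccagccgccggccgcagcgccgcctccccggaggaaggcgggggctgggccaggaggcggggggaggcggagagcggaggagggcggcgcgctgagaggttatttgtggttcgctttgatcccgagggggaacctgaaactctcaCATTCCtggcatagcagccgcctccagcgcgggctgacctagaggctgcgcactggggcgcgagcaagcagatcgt
The Ccn2 window held 3 matches that did not overlap, with their first bases 166, 101 and 92 bases before the start, whereas 0.0807% of all windows (27 of them) held 3 or more. The windows of Ccn1 and Amotl2 held 1 match each, 113 and 76 bases before the start. Yap1 and Ajuba also held 1 match each, and Wwtr1 and Tead3 held 0. A match describes these letters and is not a measured binding site.

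The libraries held between 19344893 and 19725135 estimated counts, and 13250 genes passed the filter on low counts, with all 10 members among them. The defining cartilage genes were low: Sox9 lay between 8.34 and 10.4 normalized counts per 1000000 (CPM), Col2a1 between 17.9 and 23.7, Acan between 16.4 and 21.4, and Matn1 reached 1 count in a single library. Prg4, the lubricin gene, and Col11a1 made up most of the 13 chondrocyte markers, whose summed CPM ran from 3540 to 4293 in the TNF-α group and from 3831 to 4119 in the TNF-α+NFL group. None of the markers tested in any of these lists passed an adjusted p of 0.05. Of the 11 chondrocyte markers tested, 3 collagens were higher in every TNF-α+NFL library than in any TNF-α library. This held for 8.66% of all tested genes. Col11a1 had a mean CPM of 1621 ± 68.1 after TNF-α alone and 1886 ± 98.96 with NFL (adjusted p = 0.052, edgeR), both with SD. Col2a1 lay between 17.9 and 20.2 CPM after TNF-α alone and between 21.1 and 23.7 with NFL, and Col9a1 between 1.41 and 1.57 and between 1.74 and 2.14. The other chondrocyte markers tested overlapped between the groups, with log2 fold changes from -0.14 (Prg4) to 0.090 (Acan). Prg4 was at 2168 ± 318 and 1973 ± 176. The summed CPM of the 5 macrophage and leukocyte markers in the table ran from 77.9 to 81.8 in the TNF-α group and from 70.0 to 71.8 in the TNF-α+NFL group, nearly all of it Cd14 and Cd68, while Ptprc was at 0.102 CPM or less outside TNF-α replicate 1 (0.366). Csf1r, the macrophage receptor gene of the same list, was at 2.09 CPM in TNF-α replicate 1 and between 0.0506 and 0.354 in the other 5 libraries. The 6 adipocyte markers summed to between 14.7 and 18.4 CPM in all libraries, almost entirely Fabp4 and Lpl, and the 5 pericyte markers to between 1075 and 1272, mostly Pdgfrb. Cspg4, of the pericyte list, was lower in every TNF-α+NFL library, at a mean CPM of 74.5 ± 8.14 and 63.1 ± 2.30 (adjusted p = 0.22, edgeR), and so was Cd14, at 54.2 ± 0.799 and 48.1 ± 2.03 (adjusted p = 0.16). The 4 endothelial and the 3 blood markers in the table summed to at most 0.821 and 0.105 CPM. In bulk RNA, fewer cells of a type and less RNA per cell cannot be told apart, and the part of these markers in the results was not tested.

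TNF-α replicate 1 differed from the other TNF-α libraries in a trend with transcript length. It was not the only library that stood out. In a principal component analysis of log2 CPM, TNF-α replicates 1 and 3 lay at opposite ends of the first axis (-25.2 and 22.9). The median log2 deviation of genes with transcripts above 3790 bases, minus that of genes with transcripts below 1545 bases, was 0.090 in TNF-α replicate 1, against -0.083 and -0.14 in replicates 2 and 3. In the TNF-α+NFL libraries the same difference was 0.030, 0.078 and 0.023 in replicates 1, 2 and 3. The value largest in size was that of TNF-α replicate 3. Without TNF-α replicate 1, the remaining TNF-α libraries were negative in this difference and the TNF-α+NFL libraries positive. The transcripts of Yap1, Tead1, Amotl2 and Lats2 are longer than 3790 bases (as implied by the counts and FPKM), and in each of these TNF-α replicate 1 was the highest of the TNF-α libraries. It was also the highest for Wwtr1, whose transcript is shorter than 1545 bases. For Ankrd1, Ajuba, Ccn1 and Ccn2 it was the lowest. Results are therefore also given with the trend with length removed and without TNF-α replicate 1.

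All 10 members had counts in every library, and the target genes Ccn2 and Ccn1 were among the most abundant RNAs of these cells. To compare levels between genes, TPM was used, which corrects for transcript length and for depth. Ccn2, which encodes a secreted matricellular protein (CTGF), had a mean level of 4372 ± 336 TPM (SD over the 6 libraries) and ranked 16 among the 13250 tested genes. Ccn1, which encodes the related protein CYR61, had 1023 ± 64.4 TPM and ranked 158. Ankrd1, which encodes an ankyrin repeat cofactor and is often read as a YAP target beside the CCN genes, had 5.85 ± 0.461 TPM and ranked 9719. The order from high to low was Ccn2, Ccn1, Amotl2, Lats2, Yap1, Tead1, Wwtr1, Tead3, Ajuba and Ankrd1. Tead1 and Wwtr1, at 75.3 ± 7.73 and 75.2 ± 6.19 TPM, were the only neighbors among these members whose ranges over the 6 libraries overlapped.

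**Figure D1:**
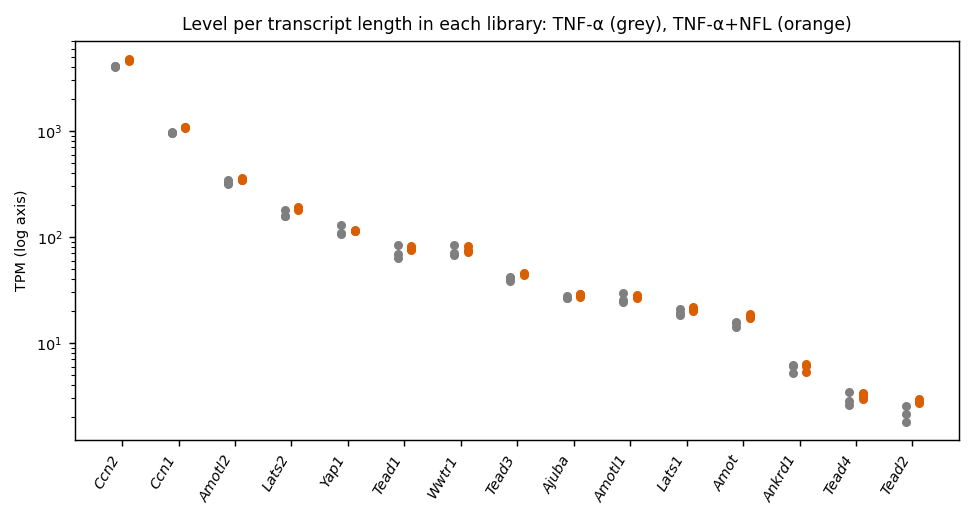
Level of each member and of the paralogs Amotl1, Lats1, Amot, Tead4 and Tead2 in TPM (log axis), with each point 1 library of the TNF-α group (grey) or the TNF-α+NFL group (orange). Ccn2 lies between 4004 and 4790 TPM in the 6 libraries, and Ankrd1 between 5.23 and 6.31.

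Yap1 exceeded Wwtr1, and Tead1 and Tead3 made up nearly all TEAD transcripts. The level of Yap1 was 115 ± 8.09 TPM over the 6 libraries. Among the 4 TEAD genes, Tead1 held between 59.4% and 63.8% of the summed TPM in a library and Tead3 between 31.6% and 36.1%. Tead2 held 1.56% to 2.38% and Tead4 2.36% to 2.64%, at 2.50 ± 0.452 and 3.07 ± 0.319 TPM. The mean share of Tead1 was 61.1% ± 2.39 after TNF-α alone and 60.8% ± 0.521 with NFL (SD, n = 3 each). That of Tead3 was 34.6% ± 2.57 and 34.6% ± 0.522, that of Tead4 2.52% ± 0.105 and 2.44% ± 0.0744, and that of Tead2 1.824% ± 0.233 and 2.202% ± 0.157.

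The question of the comparison is what differed in chondrocytes treated with TNF-α once NFL was added. None of the 10 members passed an adjusted p of 0.05 in edgeR's quasi-likelihood test, neither higher, where 0.408% of all tested genes passed, nor lower, where 0.204% passed. The log2 fold change was positive for 9 of the 10 members, with a median of 0.080, whereas 48.2% of all tested genes were positive and their median was -0.0035. At an unadjusted p under 0.05, 5 members (Ccn2, Ccn1, Lats2, Tead1 and Tead3) were higher in the TNF-α+NFL group and 0 were lower, and 5.66% of all tested genes were higher by this criterion. Without TNF-α replicate 3, the number of members at an unadjusted p under 0.05 was 3, where 1253 of 13408 genes passed in either direction. It was also 3 without TNF-α+NFL replicate 2, where 1026 of 13406 genes passed. Without TNF-α replicate 1 it was 6, where 2717 of 13409 genes passed. The 3 libraries of the TNF-α+NFL group lay above the 3 of the TNF-α group for 4 members (Ccn2, Ccn1, Lats2 and Tead3), which held for 8.66% of all tested genes. The largest of the 10 log2 fold changes was that of Ccn2, a fold of 1.12. The members are a small group of genes picked with earlier results of these data known, so these counts are descriptions.

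**Figure D2:**
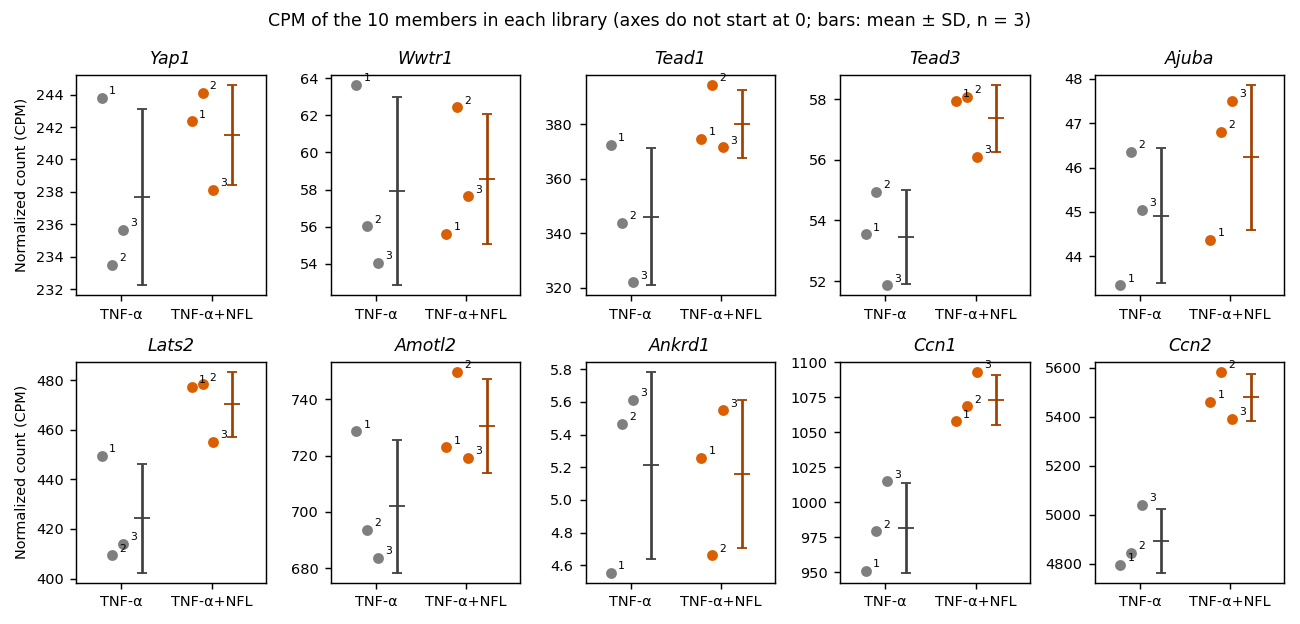
CPM of each member in each library, with a panel for each gene, the replicate number beside each point and the mean ± SD of each group (n = 3); the axes do not start at 0. The groups do not overlap in the panels of Tead3, Lats2, Ccn1 and Ccn2, and TNF-α replicate 1 lies near the TNF-α+NFL libraries in those of Yap1, Tead1 and Amotl2.

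Among the target genes, Ccn2 came closest to the threshold. Its CPM was 4794, 4844 and 5039 in TNF-α replicates 1 to 3, and 5462, 5584 and 5393 in TNF-α+NFL replicates 1 to 3. Every TNF-α+NFL library was above every TNF-α library, at 91588 to 109028 counts of Ccn2 per library. The group means were 4893 ± 129.6 and 5480 ± 96.7 (SD, n = 3). This gave a log2 fold change of 0.16 (standard error 0.037, 95% interval 0.084 to 0.24, adjusted p = 0.075, edgeR's quasi-likelihood test). The exact permutation test gave p = 0.10 (two-sided), the smallest that 3 against 3 allows.

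Ccn1 was at a CPM of 951, 979 and 1015 in the TNF-α group and 1058, 1069 and 1093 in the TNF-α+NFL group, in the order of the replicates. The groups did not overlap, though TNF-α replicate 3 and TNF-α+NFL replicate 1 differed by less than the range of the TNF-α group. For Ccn1 the log2 fold change was 0.13 (standard error 0.038, 95% interval 0.047 to 0.21, adjusted p = 0.19, edgeR's quasi-likelihood test). Ankrd1 was at a CPM of 4.55, 5.47 and 5.61 in the TNF-α group and 5.26, 4.66 and 5.55 in the TNF-α+NFL group, and the groups overlapped. With 87 to 111 counts per library, its log2 fold change of -0.016 had a wide interval, from -0.29 to 0.26. A change of the size found in Ccn2 lies within this interval of Ankrd1.

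None of the 3 upstream regulators passed the threshold, and differences between them were not tested. LATS2 is the kinase that phosphorylates YAP and TAZ, and its gene is itself a known YAP target. Lats2 was at a CPM of 449, 409 and 414 in the TNF-α group and 477, 478 and 455 in the TNF-α+NFL group. The groups did not overlap, and TNF-α replicate 1 was the library nearest to the other group. For Lats2 the log2 fold change was 0.15 (standard error 0.044, 95% interval 0.054 to 0.24, adjusted p = 0.19, edgeR's quasi-likelihood test). Its paralog Lats1 had a log2 fold change of 0.065 (95% interval -0.031 to 0.16), and a difference between both paralogs was not tested.

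AMOTL2, an angiomotin protein that binds YAP at junctions and whose gene is also a target, had the highest TPM level of the 3 regulators. Amotl2 was at a CPM of 729, 694 and 684 in the TNF-α group and 723, 750 and 719 in the TNF-α+NFL group, and TNF-α replicate 1 lay among the latter. Its log2 fold change was 0.058 (95% interval -0.026 to 0.14, adjusted p = 0.65, edgeR's quasi-likelihood test). Ajuba encodes a LIM protein that binds and restrains LATS kinases at junctions under tension. It was at a CPM of 43.3, 46.4 and 45.0 against 44.4, 46.8 and 47.5, with overlap between the groups and a log2 fold change of 0.041 (95% interval -0.067 to 0.15, adjusted p = 0.83 from the same test). The paralogs of Amotl2 had log2 fold changes of 0.22 for Amot (95% interval 0.099 to 0.33, adjusted p = 0.11) and 0.022 for Amotl1 (95% interval -0.095 to 0.14, adjusted p = 0.93).

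None of the 4 TEAD genes passed the threshold, and the log2 fold changes of all 4 were positive. Tead1 was at a CPM of 372, 344 and 322 in the TNF-α group and 375, 395 and 372 in the TNF-α+NFL group. TNF-α replicate 1 reached the level of the lowest TNF-α+NFL library, so the groups overlapped. For Tead1 the log2 fold change was 0.14 (standard error 0.051, 95% interval 0.026 to 0.25, adjusted p = 0.32, edgeR's quasi-likelihood test). Tead3 was at a CPM of 53.5, 55.0 and 51.9 in the TNF-α group and 58.0, 58.1 and 56.1 in the TNF-α+NFL group, with no overlap. Its log2 fold change was 0.10 (standard error 0.045, 95% interval 0.0040 to 0.20, adjusted p = 0.43, edgeR's quasi-likelihood test). The estimated counts of Tead1 were fractional in 6 and those of Tead3 in 5 of the 6 libraries, so some of their reads were split between genes. Of the minor factors, Tead2 had a log2 fold change of 0.36 (95% interval -0.013 to 0.73, at 39 to 62 counts per library, with no overlap in CPM between the groups) and Tead4 of 0.045 (95% interval -0.19 to 0.28).

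Neither co-activator passed the threshold, and both intervals included 0. Yap1 was at a CPM of 244, 234 and 236 in the TNF-α group and 242, 244 and 238 in the TNF-α+NFL group, and the groups overlapped. For Yap1 the log2 fold change was 0.023 (95% interval -0.057 to 0.10, adjusted p = 0.89, edgeR's quasi-likelihood test), and the interval leaves out any fold above 1.07. Wwtr1 was at a CPM of 63.7, 56.0 and 54.0 against 55.6, 62.4 and 57.6, also with overlap, and its log2 fold change was 0.016 (95% interval -0.13 to 0.16, adjusted p = 0.96 from the same test). With the length trend removed and TNF-α replicate 1 left out, the log2 fold change of Wwtr1 was 0.14 (adjusted p = 0.20). TNF-α replicate 1 was the highest of the 6 libraries for Wwtr1. Per length, the ratio of Wwtr1 to Yap1 in FPKM was 0.641, 0.643 and 0.638 in the TNF-α libraries and 0.639, 0.701 and 0.656 in the TNF-α+NFL libraries. The groups overlapped (exact permutation test of the log2 ratio, two-sided, p = 0.30).

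**Figure D3:**
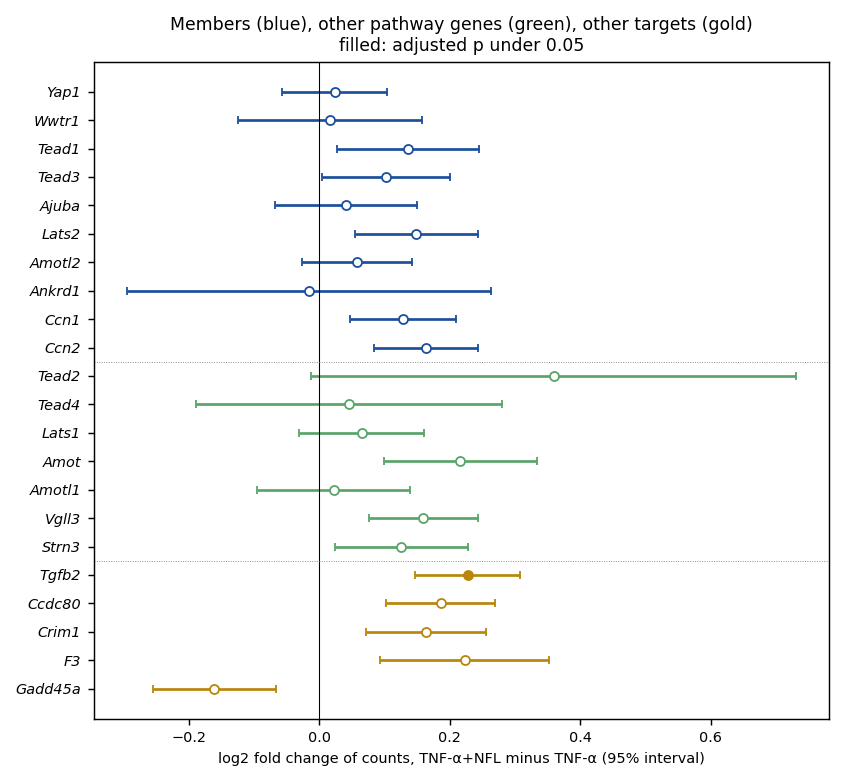
log2 fold change of counts (TNF-α+NFL minus TNF-α) with its 95% interval from edgeR for the 10 members (blue), other pathway genes (green) and other target genes (gold), filled where the adjusted p is under 0.05. Among the genes drawn, Tgfb2 alone is filled. The intervals of the members Tead1, Tead3, Lats2, Ccn1 and Ccn2 lie above 0. So do those of Amot, Vgll3, Strn3, Tgfb2, Ccdc80, Crim1 and F3, while that of Gadd45a lies below 0.

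Whether members passed the threshold depended on the setting, while the size of the differences moved little for the CCN genes. Ccn2 passed an adjusted p of 0.05 in 5 of 15 alternative fits and its log2 fold change stayed between 0.15 and 0.19 in all 15. With no filter on low counts it was the only member called (adjusted p = 0.027), where 0.467% of genes were called higher, and with the DESeq2 Wald test it was again the only one (adjusted p = 0.0019), where 1.57% of the 6057 genes given an adjusted p were called higher. With limma-voom 0 members were called, and Ccn2 was at an adjusted p of 0.053. With the trend with transcript length removed, Ccn2 (adjusted p = 0.0033) and Ccn1 (adjusted p = 0.0088) were called by edgeR and Lats2 was not (adjusted p = 0.059), and 1.16% of genes were called higher.

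Without TNF-α replicate 1, edgeR called Ccn1, Ccn2, Lats2 and Tead1 higher, with 3.43% of all genes called higher, and the log2 fold change of Tead1 was 0.19. With this library left out and the length trend removed, Ccn1, Ccn2 and Lats2 were called, with 1.77% of all genes called higher, and Tead1 was at 0.073 (adjusted p = 0.20). Leaving out any of the other 5 libraries gave 0 called members, and the adjusted p of Ccn2 then ran from 0.12 to 0.38. Few genes were called at all in these fits, between 5 and 31 higher and between 0 and 10 lower of at least 13400 tested. Tead3 was called in 0 of the 15 fits, with a log2 fold change between 0.083 and 0.13. Why the calls differed was not tested.

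**Figure D4:**
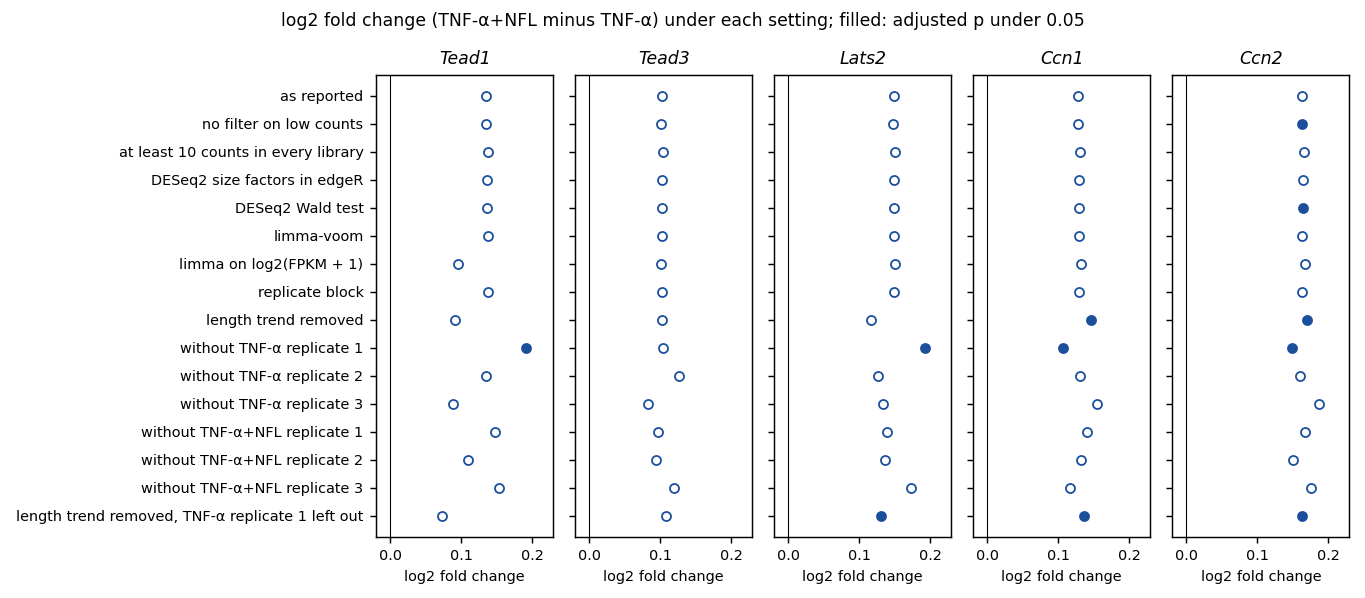
log2 fold change of the 5 members with an unadjusted p under 0.05 in the reported fit and in each of the 15 alternatives, with filled points where the adjusted p is under 0.05. The points of Ccn2 lie between 0.15 and 0.19, while those of Tead1 range from 0.073 to 0.19.

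The rest of the Hippo pathway was described with a list of 29 other genes written from general knowledge, covering the kinases, their adaptors, upstream cadherins and TEAD cofactors, of which 28 were tested. By edgeR 0 passed an adjusted p of 0.05 in either direction, with 4 higher and 0 lower at an unadjusted p under 0.05, against 5.66% of all tested genes higher. DESeq2 called 1 of them, Vgll3, where 1.57% of all genes with an adjusted p were called higher. Without TNF-α replicate 1, edgeR called Amot and Vgll3, where 3.43% of all genes were called higher. The median log2 fold change was 0.044, with 23 genes positive, against -0.0035 over all tested genes. With the length trend removed the median was 0.021 and 18 were positive. It was 0.016 with 15 positive without TNF-α replicate 3, 0.023 without TNF-α+NFL replicate 2, and 0.099 with 25 positive without TNF-α replicate 1. The smallest p values were those of Vgll3, which encodes a TEAD cofactor, Amot, and Strn3, which encodes a striatin of the phosphatase complex that acts on the Hippo kinases. Vgll3 was at a CPM of 534, 511 and 533 after TNF-α alone and 576, 609 and 576 with NFL (log2 fold change 0.16, 95% interval 0.075 to 0.24, adjusted p = 0.10, edgeR's quasi-likelihood test). Amot was at 60.6, 61.6 and 54.5 against 69.1, 65.4 and 70.7, and Strn3 at 79.3, 86.0 and 87.2 against 89.9, 94.2 and 91.3. In these 3 genes the groups did not overlap, as in 8 genes of the list with higher TNF-α+NFL libraries and in 8.66% of all tested genes.

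A second list held 17 target genes outside the members that are widely used as a signature of YAP and TAZ activity. Of these, 16 were tested, and Ptpn14 also stood in the list of Hippo genes. Their median log2 fold change was 0.043, with 11 positive, where 48.2% of all tested genes were positive. The median was 0.088 with 14 positive without TNF-α replicate 1. Leaving out TNF-α replicate 2 gave 0.021, and leaving out TNF-α+NFL replicate 1, 2 or 3 gave 0.025, 0.028 or 0.065. With TNF-α replicate 3 left out, 9 were positive. By edgeR 1 of them was called, Tgfb2, which encodes a TGF-β ligand, at a CPM of 255, 256 and 251 after TNF-α alone and 291, 306 and 296 with NFL (log2 fold change 0.23, adjusted p = 0.017), where 0.408% of all tested genes were called higher. The call of Tgfb2 was lost when any library except TNF-α replicate 1 was left out. It was also lost with the replicate block and with limma on log2(FPKM + 1). Without TNF-α replicate 1, 5 were called, where 460 genes (3.43%) were called higher and 470 lower, and the other 4, named after their values were seen, were Ccdc80, Crim1 and F3, which were higher, and Gadd45a, which was lower. Ccdc80, which encodes a matrix protein, was at an adjusted p of 0.0501 with all libraries, and its CPM was 1729, 1615 and 1728 against 1917, 1946 and 1907. F3, the tissue factor gene, was at a CPM of 487, 560 and 580 against 630, 618 and 650, and Gadd45a, a stress gene, was at 137, 149 and 149 against 131, 130.4 and 127. The list thus held genes in both directions without TNF-α replicate 1.

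The member whose pattern over the 6 libraries was most like that of Ccn2 was Ccn1, with a Pearson correlation of the log2 CPM of 0.93. The correlation was 0.78 with Tead3, 0.76 with Lats2, 0.58 with Tead1, 0.56 with Amotl2, 0.47 with Ajuba, 0.42 with Yap1 and 0.0049 with Wwtr1. With Ankrd1, the third target gene, it was -0.0068. Over all tested genes the highest values were 0.998 for Tsc22d2, 0.992 for LOC100912151 and 0.989 for Dnajb11, with log2 fold changes of 0.061, 0.16 and 0.065. Of the 13249 other genes, 254 had a value above 0.9. These correlations rest on 6 libraries that share the group difference, and are descriptions.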

How the data were processed

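RNA-seq libraries of rat chondrocytes, 3 of the TNF-α group and 3 of the TNF-α+NFL group by the treatment in the labels, were analysed. The submitters' processing notes name HISAT2 2.0.4, Bowtie2 2.2.5, RSEM 1.2.12 and the genome build Rnor_6.0, with no role given. The annotation and strand setting are not given in the sources used here, so overlapping and antisense genes are uncertain. Per gene, the authors deposited RSEM's estimated counts (unnormalized, some fractional), FPKM values, scaled to length and mapped reads, and TPM values, scaled to length and to a sum of 1000000. Fractional counts made up 27.3% to 27.96% of genes, and all counts were rounded to whole numbers.

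The test was the robust quasi-likelihood fit of edgeR 4.0.16 under R 4.3.3 (TMM, filterByExpr, Benjamini-Hochberg adjustment over 13250 genes), and the biological coefficient of variation was 6.39%. CPM used the TMM library sizes. The F statistic of each gene gave the standard error of its fold change and the 95% interval. The test was checked on simulated counts, with changes larger than those of any member and no trend with length. That check therefore does not cover differences of the size reported here. Alternatives were other filters, size factors and tests (DESeq2 1.42.0, limma 3.58.1), limma on log2(FPKM + 1), the replicate number as a block, a lowess trend with transcript length removed, and leaving out each library. Removing the trend and TNF-α replicate 1 together was added after the data had been seen. Lengths were implied by counts and FPKM.

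The members, lists and tests were chosen with earlier results of these data known. All members, their paralogs, list members past the threshold or else the 3 with the smallest p, and the 3 genes most like Ccn2 are named. Rows were matched by symbol or RefSeq gene ID (17068 of 18420 identifiers matched). Promoter windows are from RefSeq, assembly GRCr8, whose coordinates are not given because the build differs.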

Additional observations from a re-analysis of the deposited data

How the results depend on the processing

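Against 54 higher and 27 lower genes, 0 called members, 0 other Hippo genes and 1 other target gene, the counts moved as follows. With no filter on low counts there were 84 higher and 48 lower genes, 1 member and 2 other targets. With the DESeq2 Wald test there were 95 and 53 genes, 1 member, 1 other Hippo gene and 4 other targets. With at least 10 counts in every library (68 and 27 genes), DESeq2's size factors (59 and 27) or limma-voom (56 and 28), 2 other targets were called. With limma on log2(FPKM + 1) there were 3 and 3 genes and 0 other targets. With the length trend removed there were 154 and 84 genes, 2 members and 4 other targets, and with TNF-α replicate 1 also left out 237 and 132, 3 members and 5 other targets. With a replicate block (the number in the labels) there were 25 and 9 genes and 0 other targets, and Tgfb2 lost its call; Ccn2 was at an adjusted p of 0.22 and a log2 fold change of 0.16. These numbers were not taken as pairs, since the correlations of the deviations of same-numbered libraries were 0.043, -0.021 and 0.11.

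Across the fits that left out 1 library, higher genes ran from 5 to 460, lower genes from 0 to 470, members from 0 to 4, other Hippo genes from 0 to 2 and other targets from 0 to 5, each highest without TNF-α replicate 1. Wwtr1 then had log2 fold changes from -0.031 to 0.090 and Ankrd1 from -0.10 to 0.052. The direction also turned for Yap1 with FPKM (-0.031), with the length trend removed (-0.00097) and with TNF-α replicate 1 also left out (-0.0019), for Ankrd1 with the length trend removed (0.0084) and for Ajuba with both changes (-0.0014). The difference in the log2 ratio of Wwtr1 to Yap1 was 0.053 in FPKM and -0.0055 with counts not scaled to length, and in FPKM it was 0.015 without TNF-α+NFL replicate 2 and 0.081 without TNF-α+NFL replicate 1. The cause was not tested. Ccn1, Ccn2, Lats2, Tead1, Tead3 and Amotl2 kept a positive log2 fold change in all 15 alternatives, which share libraries. Ankrd1 and Tead2 had no more than 111 and 62 counts per library, and their intervals were wide.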
